A study of Gallus gallus with 54 samples.

Results

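The genes described here code for the receptors through which retinal neurons read GABA, glycine, glutamate and acetylcholine, taken as ligand-gated channels and G protein-coupled receptors together. They were chosen by gene symbol alone: GABA-A and GABA-B subunits, glycine receptor subunits, the AMPA, kainate, NMDA and delta groups of glutamate receptor, metabotropic glutamate receptors, and nicotinic acetylcholine receptor subunits. The rule found 57 genes among 24599 gene names, with the transcript entry of the highest summed count standing for each gene. It took in 14 GABA-A, 1 GABA-B, 5 glycine, 4 AMPA, 4 kainate, 5 NMDA, 2 delta, 7 metabotropic glutamate and 15 nicotinic genes. Of these, 54 passed the filter on low counts and were tested. The 3 that did not were CHRNA9, CHRNA10 and CHRNG. The symbols GRM6, GABBR1, GRIN2B and GRIN2D were not analysed here, and the rho subunits of GABA receptors and the muscarinic receptors lie outside the rule.

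RNA came from whole retinas of male White Leghorn chicks raised for 6 days under a 12 h light cycle and then assigned to 7 conditions. A translucent diffuser over the eye blurs vision and makes it grow too long, which is form-deprivation myopia (FDM). The groups were FDM with an intravitreal injection of atropine, pirenzepine, ADTN or TPMPA, then recovery (a diffuser worn for 3 days and taken off), FDM alone, and age-matched untreated birds. Retinas were taken 24 h or 4 h after the diffuser was fitted, the drug injected or the diffuser removed, at 8 and 7 days of age, with 4 libraries in each of the 14 groups except recovery at 4 h and untreated birds at 24 h, which had 3. For recovery birds, how the 3 days of diffuser wear fit with the 6 days of rearing and these ages was not settled here. Atropine blocks muscarinic acetylcholine receptors, pirenzepine is a muscarinic antagonist with preference for some subtypes, ADTN is a dopamine receptor agonist and TPMPA blocks GABA receptors made of rho subunits. Injected birds of the 24 h groups had a repeat injection 4 h before collection, the labels name no group injected with vehicle only, and the labels give no drug doses. The labels do not say that each library came from a separate bird, so p-values measure the spread between these libraries.

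GABA-A and glycine receptors are chloride channels of 5 subunits that inhibit retinal neurons, while GABA-B receptors act through G proteins. Photoreceptors and bipolar cells release glutamate, which opens AMPA, kainate and NMDA channels, and metabotropic glutamate receptors tune release or, in ON bipolar cells, carry the light signal itself. Starburst amacrine cells release acetylcholine, which opens nicotinic channels on amacrine and ganglion cells. Each channel's subunits set its kinetics, drug sensitivity and place in the cell, so the mix of subunit transcripts describes which receptors a retina could build.

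Library totals ran from 7.40 to 24.8 M counts (M for mega), and the FDM group at 4 h was the shallowest, with 7.40 to 15.1 M counts. Markers of photoreceptors, bipolar, horizontal, amacrine and ganglion cells and Mueller glia all averaged above 1 CPM where they were in the table, while skeletal muscle markers summed to 1.56 to 14.6 CPM. Pigment epithelium markers varied widely, with sums of 130 to 1110 CPM over the libraries and 130 to 992 CPM within FDM at 4 h. In RNA from a whole tissue, fewer cells of a type and less RNA per cell cannot be told apart. Levels are CPM, counts scaled by library size with TMM normalisation, and levels are compared between genes only per kilobase of the deposited transcript (CPM per kb). A change is called where the adjusted p of edgeR's quasi-likelihood test, over all 15746 tested genes, is below 0.05.

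GABA-A subunits were the most abundant family by summed level. Summed over its 14 genes the level was 875.5 ± 68.1 CPM per kb (SD, n = 54 libraries), which was 35.0% of the level summed over all 57 genes. Nicotinic subunits made up 18.4%, glycine receptor subunits 12.1%, kainate 8.36%, AMPA 8.08%, NMDA 8.02%, metabotropic glutamate 6.72%, GABA-B 1.74% and delta 1.58%. The inhibitory receptors for GABA and glycine together held 48.8%, with a range of 43.5% to 51.8% over the 54 libraries, and the ionotropic glutamate receptors held 26.0%. The sums are over unequal numbers of genes, and GRM6, GABBR1, GRIN2B and GRIN2D enter none of them. These shares are of transcript levels per kilobase and say nothing of receptor protein.

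**Figure D1:**
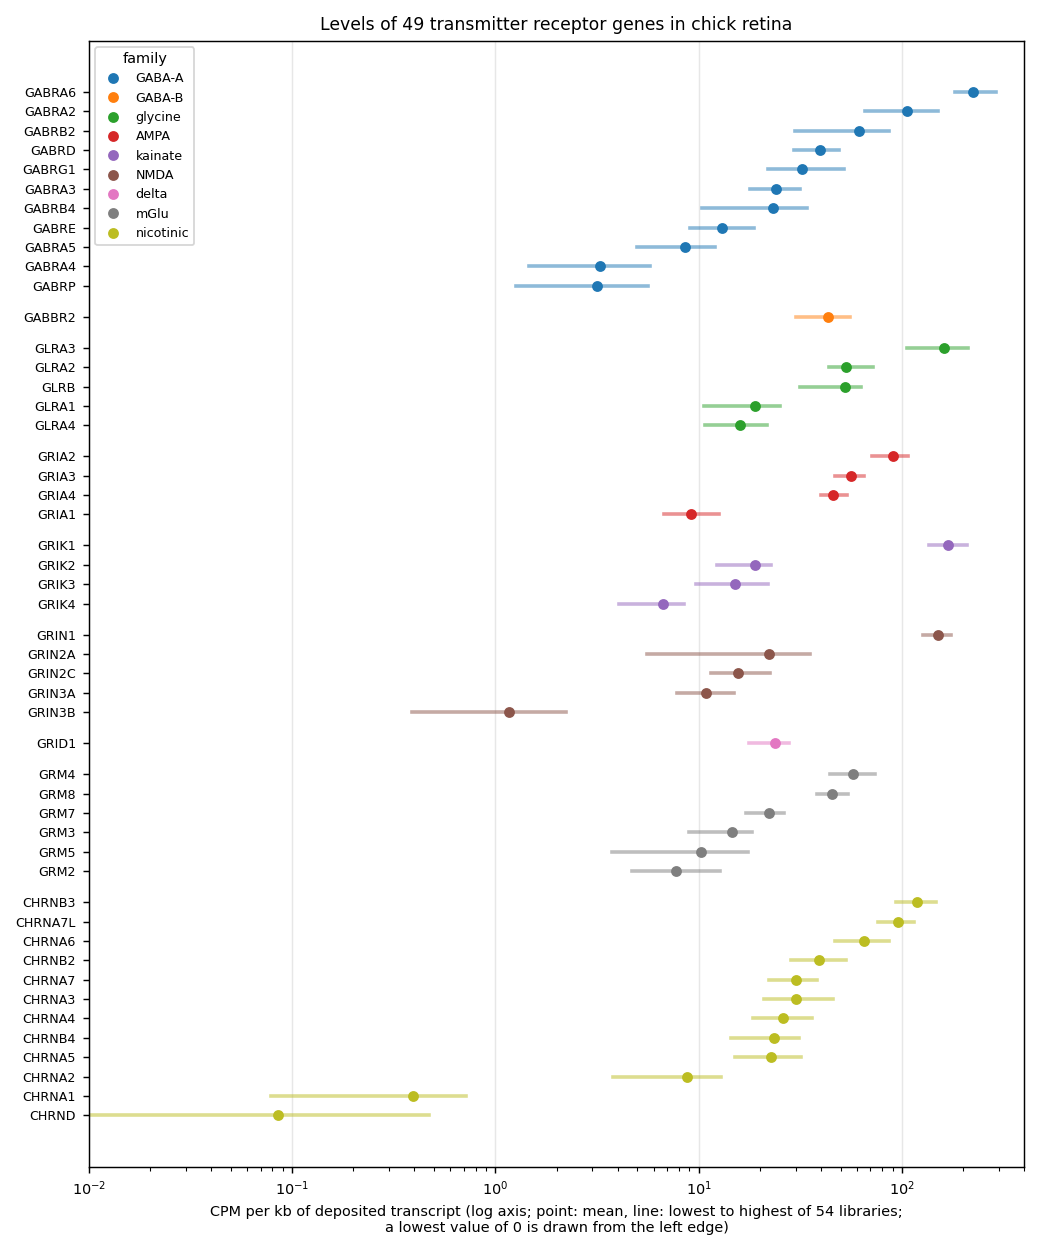
Level of 49 tested receptor genes in CPM per kb on a log axis, coloured by family; each point is the mean over 54 libraries and each line runs from the lowest to the highest library. GABRA6, GRIK1, GLRA3 and GRIN1 are among the highest, and CHRND stands at the bottom.

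Among GABA-A subunits, GABRA6 was highest at 224 ± 21.8 CPM per kb. This alpha subunit, best known in mammals from granule cells of the cerebellum, was the highest of all 57 genes and lay at percentile 98.9 of the tested genes per kilobase. Its library values ran from 257.8 to 413.5 CPM with a median of 317 CPM, so the highest library was 1.60 times the lowest. GABRA2, another alpha subunit, stood at 105 ± 18.9 CPM per kb. GABRB2 averaged 61.3 CPM per kb, and GABRD, a subunit of receptors outside synapses, averaged 39.5. GABRA4 and GABRP were lowest, at 3.27 and 3.16 CPM per kb. The genes named GABRB4 (23.1 CPM per kb) and GABRE (13.1 CPM per kb) are beta and gamma type subunits in birds; RefSeq now lists the symbol GABRB4 as a synonym of GABRQ.

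GABBR2, the subunit of GABA-B receptors that couples to the G protein, ran from 83.4 to 154 CPM with a median of 120.5 CPM, or 43.4 ± 4.60 CPM per kb. Of the glycine receptor genes, GLRA3 was highest at 161 ± 25.7 CPM per kb, and its libraries ran from 139 to 276 CPM with a median of 215 CPM. In mouse retina its product sits at synapses of the inner plexiform layer. GLRA2 and GLRB, the beta subunit that binds the scaffold gephyrin, were level at 53.2 and 52.6 CPM per kb, with GLRA2 higher in 28 of 54 libraries. GLRA1 and GLRA4 were lower, at 18.9 and 16.01 CPM per kb.

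For glutamate, 1 gene led each channel family. GRIK1, the kainate subunit that carries cone signals into some OFF bipolar cells of mammals, stood at 168 ± 16.02 CPM per kb, against 19.0 for GRIK2, 15.2 for GRIK3 and 6.71 for GRIK4. Its library values ran from 363 to 558 CPM with a median of 447 CPM. GRIN1, the subunit every NMDA receptor needs, stood at 150.4 ± 12.6 CPM per kb, and its libraries ran from 476 to 659 CPM with a median of 563 CPM. The other NMDA subunits were far below it, from GRIN2A at 22.3 and GRIN2C at 15.6 through GRIN3A at 10.9 to GRIN3B at 1.17 CPM per kb. GRIA2, whose edited form makes AMPA receptors impermeable to calcium, stood at 90.6 ± 7.54 CPM per kb and ran from 286 to 429 CPM with a median of 368 CPM. GRIA3 at 55.9 and GRIA4 at 45.8 CPM per kb came next, and GRIA1 was lowest at 9.19. The order of the 4 AMPA genes was the same in all 54 libraries. The delta receptors, which bind cerebellins at synapses and are not opened by glutamate in the usual way, were lower, with GRID1 at 23.7 ± 2.22 CPM per kb. It ran from 48.5 to 77.1 CPM with a median of 65.9 CPM.

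Among the metabotropic glutamate receptors analysed here, which leave out GRM6, the presynaptic group led. GRM4 stood at 57.6 ± 7.22, GRM8 at 45.5 ± 3.91 and GRM7 at 22.1 ± 2.60 CPM per kb, in that order in every library. GRM4 ran from 121 to 202 CPM with a median of 156 CPM. GRM3 (14.6 CPM per kb), GRM2 (7.74) and GRM5 (10.2), which is coupled to phospholipase C, were lower still.

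Nicotinic subunits were led by CHRNB3 at 118 ± 10.8 CPM per kb, which ran from 212 to 332 CPM with a median of 268 CPM. The next were CHRNA7L, which RefSeq lists as a synonym of CHRNA8, a close relative of CHRNA7 known from birds, at 96.0 ± 10.4, and CHRNA6, a frequent partner of CHRNB3, at 64.7 ± 7.81 CPM per kb. CHRNB2, CHRNA7, CHRNA3, CHRNA4, CHRNB4 and CHRNA5 lay between 39.1 and 22.8 CPM per kb, and CHRNA7 exceeded CHRNA3 in 25 of 54 libraries, while CHRNA2 was at 8.72. Subunits of the muscle receptor were at or near 0. CHRNA1 stood at 0.393 CPM per kb, and CHRND had no count in 24 of 54 libraries and CHRNG none in 41. CHRNA9 and CHRNA10, known from inner ear hair cells, had no count in 45 and 39 libraries.

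Across the 14 group means, some receptor genes moved little and others more. The highest group mean of GRIA4 was 1.15 times the lowest, and for GRIA2 that ratio was 1.15, for GABBR2 1.19 and for GRIN1 1.20. The widest ratios among genes above 5 CPM belonged to GABRB4, at 1.97, and GABRA4, at 1.94. GRIN2A, at 1.77, GABRA5, at 1.62, and GRM2, at 1.61, came after them. GABRB4 averaged 55.04 ± 4.63 CPM in FDM + TPMPA at 4 h and 27.9 ± 4.18 CPM in FDM + pirenzepine at 4 h (SD, n = 4 each), its highest and lowest groups.

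**Figure D2:**
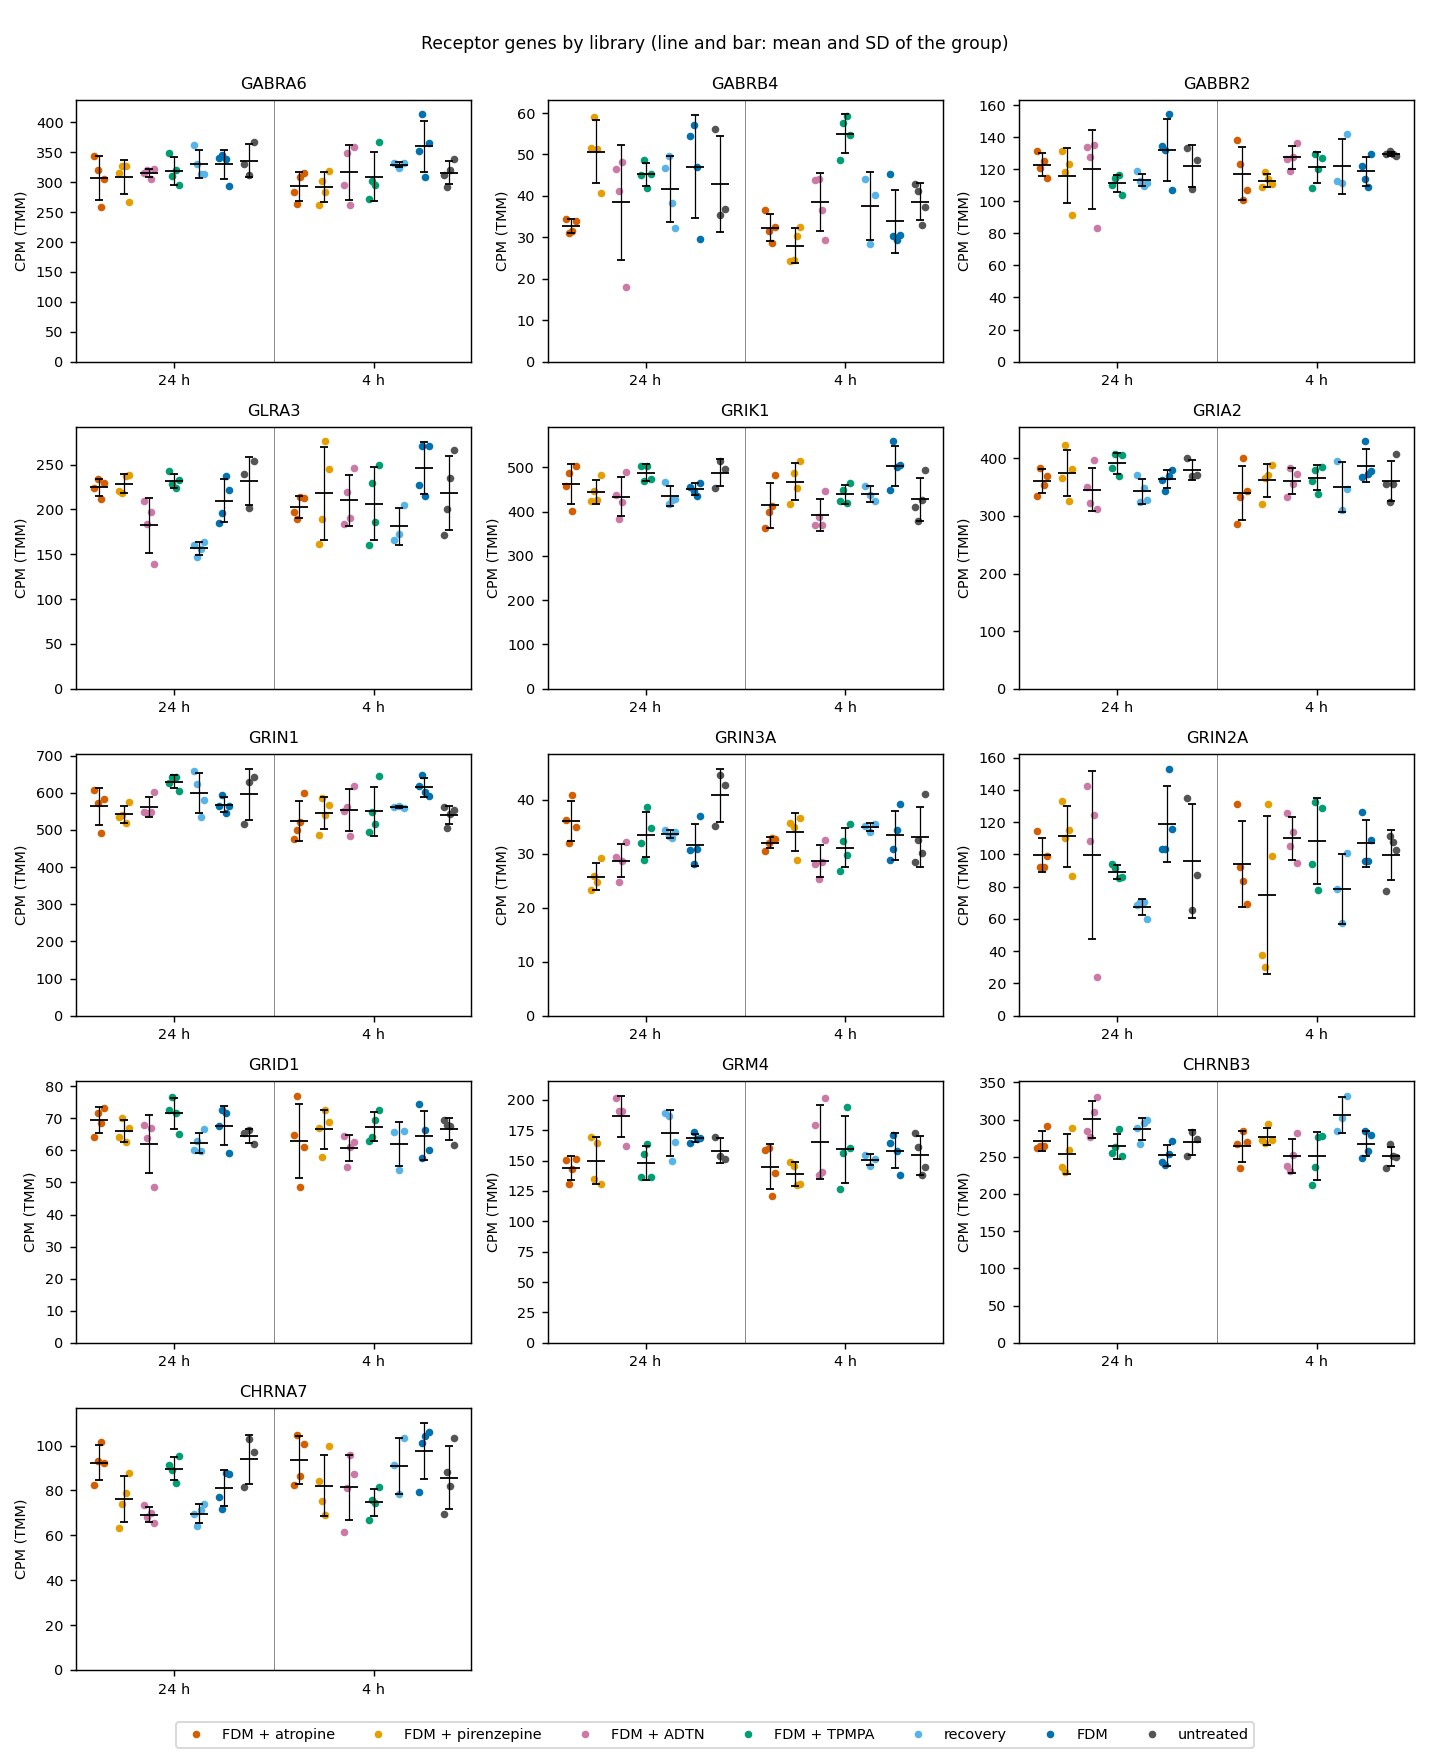
TMM-normalised CPM of 13 receptor genes in each of the 54 libraries, by group, with 24 h on the left and 4 h on the right of each panel; points are libraries, and the line and bar are the group mean and SD. Among the 4 h groups of the GRIK1 panel, the 4 FDM + ADTN libraries lie between 369.8 and 446 CPM and the 4 FDM libraries between 449 and 558 CPM.

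FDM with ADTN against FDM alone tests an injection of a dopamine agonist in a retina behind a diffuser; the labels give FDM birds no vehicle injection, so agonist and injection cannot be told apart. At 4 h, 3 of the 54 tested receptor genes were called and all 3 fell, the kainate subunit GRIK1 among them. Over all tested genes this comparison called 0.756%, and 0.337% as lower. At an unadjusted p under 0.05 there were 14 receptor genes (25.9% of the 54), beside 14.7% of all genes. GRIK1 (galGal5 chromosome 1, 104161063 to 104236516, minus strand) had 369.8, 386.8, 369.9 and 446 CPM in FDM + ADTN retinas, against 449, 558, 501.5 and 505 CPM in FDM retinas. The groups did not overlap, but the highest ADTN library came close to the lowest FDM library. The log2 change was -0.36 ± 0.08 (SE), from 393 ± 36.1 CPM in FDM + ADTN against 503.5 ± 44.6 CPM in FDM (SD, n = 4 each), and edgeR's adjusted p was 0.028. Of the 14 groups, FDM at 4 h had the highest GRIK1 mean and FDM + ADTN at 4 h the lowest. FDM itself stood above untreated retinas at 4 h by 0.24 ± 0.08 in log2, without passing (edgeR adjusted p = 0.45). FDM + ADTN was not compared with untreated retinas.

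Over the 54 tested receptor genes, 39 had a negative and 15 a positive log2 change with ADTN at 4 h, with a median of -0.15, beside 0.00 over all tested genes. The split was not particular to ADTN. Against the same FDM libraries, 39 genes were negative with atropine (median -0.08), 42 with pirenzepine (-0.15), 29 with TPMPA (-0.03) and 39 in recovery (-0.10). Of the 4 kainate genes, 3, 4, 2 and 4 were negative in these groups, in that order. With ADTN all 4 kainate genes were negative (median -0.30), as were 11 of 12 nicotinic genes (median -0.22), which include CHRNA1 and CHRND with few counts. The 7 metabotropic glutamate genes were split 4 to 3 (median 0.01) and the 4 AMPA genes 2 to 2 (median -0.03). Of 14 GABA-A genes 9 were negative (median -0.21), as were 4 of 5 NMDA, 4 of 5 glycine and the 2 delta genes. The 1 GABA-B gene was positive. Photoreceptor markers, 8 of 10 in the table and all above 10 CPM, summed to 2257 to 2958 CPM in FDM + ADTN, against 3021 to 4211 CPM in FDM. Vessel and pecten markers, 14 of 17 in the table and none at 0, summed to 920.1 to 1305 CPM in FDM + ADTN, against 692 to 924 CPM in FDM. Bipolar cell markers, 6 of 8 in the table and all above 10 CPM, summed to 1471 to 1710 CPM in FDM + ADTN, against 1689 to 1809 CPM in FDM. Leukocyte and microglia markers, 9 of 10 in the table and none at 0, summed to 137 to 173 CPM in FDM + ADTN, against 116 to 126 CPM in FDM. The photoreceptor and leukocyte sums did not overlap between the groups, and the vessel and bipolar sums overlapped narrowly. So did horizontal cell sums, at 629 to 685 CPM in FDM + ADTN, against 675 to 817 CPM in FDM. Amacrine cell sums (1352 to 1662 CPM against 1456 to 1641 CPM) overlapped more widely, as did ganglion cell and Mueller glia sums. The part of the cell markers in the changes was tested only for the vessel list. Library totals were 13.3 to 19.4 M counts in FDM + ADTN, against 7.40 to 15.1 M counts in FDM. For GRIK1 the adjusted p was 0.26 with the vessel score as a covariate, 0.0501 with the library total and 0.143 in a fit on these 2 groups alone. Leaving out FDM library 2, 3 or 4 or ADTN library 1, 2 or 3 ended its call, with adjusted p of 0.0071 to 0.17 over the 8 refits.

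The 4 injected groups were compared with the same FDM libraries, so their values stand side by side and do not add to each other. For GRIK1 at 4 h the log2 changes were -0.28 with atropine, -0.11 with pirenzepine, -0.36 with ADTN and -0.20 with TPMPA. As a single contrast, the mean of the 4 drug groups against FDM at 4 h called the same 3 genes, lower by edgeR, where 1.58% of all tested genes were called and 0.597% as lower. At an unadjusted p under 0.05 there were 10 (18.5% of the 54), beside 13.3% of all genes. GRIK1 changed by -0.24 ± 0.07 (adjusted p = 0.049). With the library total as a covariate none of the 3 was called, and GRIK1 had a log2 change of -0.10 (adjusted p = 0.37). Leaving out any of 15 of the 20 libraries ended the GRIK1 call, which was kept without FDM library 1 or the library numbered 4 of any drug group. GRIK1 was also not called by limma (adjusted p = 0.068), with no filter (0.072) or with the vessel score (0.089).

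At 24 h, FDM + ADTN against FDM called no receptor gene by edgeR, DESeq2 or limma, with 5 (9.26% of the 54) at an unadjusted p under 0.05, beside 7.86% of all genes, and 0.0381% of all genes called. GRIK1 had a log2 change of -0.06 ± 0.08. The difference between its 24 h and its 4 h change was 0.30 ± 0.12 and did not pass (edgeR adjusted p = 0.68). The smallest p values belonged to CHRNB3, at 300.5 ± 24.7 CPM in FDM + ADTN and 252 ± 13.9 CPM in FDM (log2 change 0.26 ± 0.08, adjusted p = 0.32), GLRB (-0.33 ± 0.11, adjusted p = 0.36) and GRM5 (-0.49 ± 0.21, adjusted p = 0.58). FDM + ADTN library 4 was the lowest of its group in both GLRB (47.4 CPM beside 67.8 to 80.7) and GRM5 (13.97 CPM beside 31.7 to 39.6). Without it the log2 change was -0.20 for GLRB and -0.26 for GRM5, with edgeR adjusted p of 0.84 and 0.98.

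**Figure D3:**
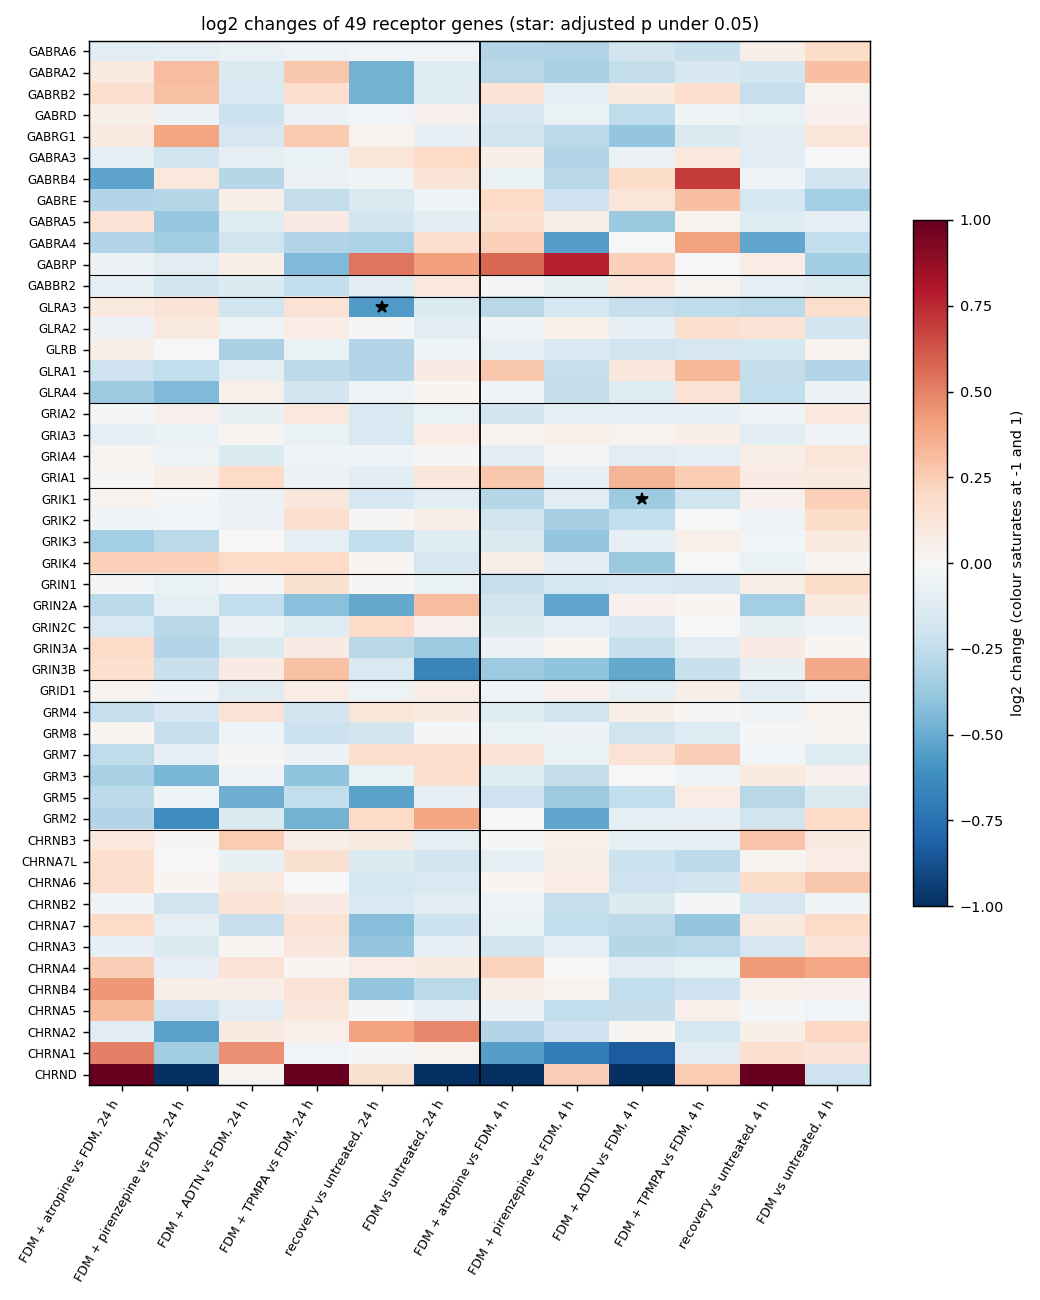
Log2 change of 49 tested receptor genes in the 12 main comparisons, on a colour scale that saturates at -1 and 1, with genes grouped by family; marked cells passed an adjusted p of 0.05 in edgeR. The marks fall on GRIK1 for FDM + ADTN against FDM at 4 h and on GLRA3 for recovery against untreated at 24 h.

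The recovery groups ask what follows when clear vision returns. After 24 h of recovery 1 receptor gene was called against untreated birds, where 0.654% of all tested genes were, and 0.438% as lower: GLRA3, which fell. At an unadjusted p under 0.05 there were 10 (18.5% of the 54), beside 12.3% of all genes. GLRA3 (chromosome 4, 44143791 to 44198324, minus strand) had 160.0, 147, 156 and 164 CPM in recovery retinas, against 240.1, 202 and 254 CPM in untreated retinas. The recovery libraries lay close together and below every untreated library. The log2 change was -0.56 ± 0.14, from 157 ± 7.17 CPM (SD, n = 4) against 232 ± 26.8 CPM (SD, n = 3), and edgeR's adjusted p was 0.042. The other 4 glycine receptor genes were also negative, so that the family's median log2 change was -0.29. CHRNA7, the subunit of calcium-permeable homomeric nicotinic receptors, was next, at 69.7 ± 4.09 CPM in recovery and 93.9 ± 11.1 CPM in untreated retinas without overlap (-0.43 ± 0.13, adjusted p = 0.108), followed by GABRA2 (-0.47 ± 0.16, adjusted p = 0.17). Over all 54 genes 40 changes were negative and 14 positive, with a median of -0.11 beside 0.01 over all tested genes. Vessel and pecten markers summed to 1005 to 1167 CPM in recovery, against 756 to 768 CPM in untreated retinas, and bipolar cell markers to 1511 to 1572 CPM in recovery, against 1648 to 1717 CPM in untreated retinas. Neither list overlapped between the groups, while the sums of every other marker list did. The part of the bipolar list in the changes was not tested. With the vessel score as a covariate GLRA3's change was -0.43 with an adjusted p of 0.39, and without any 1 of the 7 libraries its adjusted p ranged from 0.056 to 0.25. It was also above the threshold with limma (0.055), the small RNA score (0.079) and the library total (0.060).

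GLRA3 was also lower in recovery than in FDM retinas, without passing the test. Its log2 change against FDM was -0.42 ± 0.13 at 24 h (adjusted p = 0.106) and -0.44 ± 0.14 at 4 h (adjusted p = 0.21), and against untreated birds at 4 h it was -0.27 ± 0.14 (adjusted p = 0.75). At 4 h the recovery libraries had 166, 173 and 205 CPM and at 24 h the FDM libraries had 184, 196, 237 and 222 CPM. The change against untreated birds did not differ between 24 h and 4 h by edgeR's test of the difference (-0.30 ± 0.20, adjusted p = 0.83).

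Recovery against untreated birds at 4 h called no receptor gene by edgeR, DESeq2 or limma, with 3 (5.56% of the 54) at an unadjusted p under 0.05, beside 7.01% of all genes, and 0.0381% of all genes called. CHRNB3 had 306 ± 23.9 CPM in recovery (n = 3) and 251 ± 12.8 CPM in untreated retinas (n = 4), without overlap, a log2 change of 0.29 ± 0.09 (adjusted p = 0.24). CHRNA4 (0.43 ± 0.14, adjusted p = 0.37) and GABRA4 (-0.52 ± 0.24, adjusted p = 0.68) came after it. Recovery against FDM also called none by the 3 tools at either time. At 24 h, where 1.17% of all genes were called, 12 receptor genes (22.2% of the 54) had an unadjusted p under 0.05, beside 13.3% of all genes, led by GLRA3 and GRIA3 (-0.23 ± 0.07, adjusted p = 0.12). At 4 h, where 0.349% were called, 6 (11.1% of the 54) did, beside 9.25% of all genes, among them GLRA2 (0.33 ± 0.09, adjusted p = 0.11) and GLRA3.

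The diffuser by itself, FDM against untreated, called no receptor gene at either time by edgeR, DESeq2 or limma. At 24 h, where 0% of all genes were called, 3 receptor genes (5.56% of the 54) and 7.21% of all genes had an unadjusted p under 0.05. Among them were GRIN3A, an NMDA subunit that binds glycine and lowers calcium entry, at 31.6 ± 3.81 CPM in FDM (n = 4) and 40.8 ± 4.96 CPM in untreated retinas (n = 3; log2 change -0.37 ± 0.12, adjusted p = 0.57), and CHRND, which had at most 0.754 CPM in any library. At 4 h, where 0.171% of all genes were called, 6 receptor genes (11.1% of the 54) and 6.97% of all genes had an unadjusted p under 0.05. The smallest p values were those of CHRNA4 (0.38 ± 0.13, adjusted p = 0.41), GRIK1 (0.24 ± 0.08, adjusted p = 0.45) and GABRE (-0.34 ± 0.13, adjusted p = 0.50). All 3 overlapped between the groups.

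Atropine and pirenzepine each called no receptor gene by edgeR against FDM. With atropine at 24 h, where 0.0953% of all genes were called, 10 receptor genes (18.5% of the 54) and 13.3% of all genes had an unadjusted p under 0.05, and neither DESeq2 nor limma called any receptor gene. CHRNB4 had 63.4 ± 7.44 CPM in FDM + atropine and 47.0 ± 2.48 CPM in FDM, without overlap (0.43 ± 0.15, adjusted p = 0.20), and GABRB4 (-0.52 ± 0.20, adjusted p = 0.23) and GRM3 (-0.33 ± 0.14, adjusted p = 0.28) followed. With atropine at 4 h, where 1.17% were called, 9 receptor genes (16.7% of the 54) and 11.8% of all genes had an unadjusted p under 0.05. GRIK1 was called by DESeq2, with 2.02% of all genes, and no receptor gene by limma, and edgeR put GRIK1 at -0.28 ± 0.08 (adjusted p = 0.085) and GABRA6 at -0.30 ± 0.10 (adjusted p = 0.13).

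With pirenzepine at 24 h, where 1.63% of all genes were called, 12 receptor genes (22.2% of the 54) and 11.9% of all genes had an unadjusted p under 0.05. The first 3 were metabotropic glutamate receptors. GRM3 had 36.4 ± 9.68 CPM in FDM + pirenzepine and 49.9 ± 2.62 CPM in FDM (-0.46 ± 0.14, edgeR adjusted p = 0.074), and it was the 1 receptor gene called by DESeq2, with 2.34% of all genes, and by limma, with 1.63%. GRM2 had 11.1 ± 2.22 CPM in FDM + pirenzepine and 17.1 ± 2.04 CPM in FDM without overlap (-0.62 ± 0.19, adjusted p = 0.083), and GRM8 had 124 ± 7.60 CPM in FDM + pirenzepine and 146 ± 6.40 CPM in FDM, also without overlap (-0.23 ± 0.07, adjusted p = 0.107). At 4 h 2.09% of all genes were called and 11 receptor genes (20.4% of the 54) had an unadjusted p under 0.05, beside 14% of all genes. Of the receptors, DESeq2 called 2, GABRA6 among them, with 3.68% of all genes called, and limma none. By edgeR GABRA6 was at -0.30 ± 0.10 (adjusted p = 0.084) and GABRP, a subunit near 4 CPM here, at 0.77 ± 0.27 (adjusted p = 0.13).

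Set against each other at 24 h, the muscarinic antagonists differed in 1 receptor gene by edgeR, where 0.197% of all genes were called, 0.0191% as higher with atropine, and 10 receptor genes (18.5% of the 54) and 11.6% of all genes had an unadjusted p under 0.05. GRIN3A had 36.2, 32.0, 40.9 and 35.0 CPM in FDM + atropine, against 23.3, 25.8, 24.8 and 29.2 CPM in FDM + pirenzepine. No library of either group fell in the range of the other, and the log2 change was 0.48 ± 0.11 (adjusted p = 0.046). Against their shared FDM libraries, at 31.6 ± 3.81 CPM, GRIN3A was at 0.19 ± 0.11 with atropine and at -0.30 ± 0.11 with pirenzepine, and neither passed. Leaving out atropine library 1, 3 or 4 or pirenzepine library 1, 2 or 3 ended the call, with adjusted p values of 0.035 to 0.25 over 8 refits, and with the small RNA score it was 0.30. CHRNA5 (0.52 ± 0.14, adjusted p = 0.088) and GRM8 (0.26 ± 0.07, adjusted p = 0.15) came next. At 4 h edgeR, DESeq2 and limma called no receptor gene, and edgeR called 0% of all genes. At an unadjusted p under 0.05 there were 7 receptor genes (13.0% of the 54), beside 7.67% of all genes, led by GABRA4 (0.79 ± 0.23), GABRE (0.40 ± 0.13) and GLRA1 (0.50 ± 0.16), with adjusted p of 0.37, 0.45 and 0.46.

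TPMPA called no receptor gene by edgeR at either time. At 24 h, where 0% of all genes were called, 5 receptor genes (9.26% of the 54) and 11.7% of all genes had an unadjusted p under 0.05, and neither DESeq2 nor limma called any receptor gene. The first were again GRM8 (-0.22 ± 0.07, adjusted p = 0.27), GRM3 (-0.40 ± 0.14, adjusted p = 0.27) and GRM2 (-0.47 ± 0.19, adjusted p = 0.32), each without overlap between FDM + TPMPA and the FDM libraries that the pirenzepine comparison also uses. At 4 h 0.47% of all genes were called, and 12 receptor genes (22.2% of the 54) and 14.5% of all genes had an unadjusted p under 0.05. GABRB4 had 48.7, 57.6, 59.2 and 54.6 CPM in FDM + TPMPA, against 45.2, 30.2, 29.4 and 30.5 CPM in FDM. The groups did not overlap, the log2 change was 0.70 ± 0.20, and edgeR's adjusted p was 0.092, while DESeq2 called it (adjusted p = 0.041), with 1.29% of all genes, and limma did not. CHRNA7 was at -0.39 ± 0.12 (adjusted p = 0.12). At 24 h GABRB4 was at -0.06 ± 0.20 with TPMPA.

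The mean of the 4 drug groups against FDM at 24 h called no receptor gene by edgeR, DESeq2 or limma, where 0.14% of all genes were called and 4 receptor genes (7.41% of the 54) and 10.5% of all genes had an unadjusted p under 0.05. GRM3 (-0.30 ± 0.11, adjusted p = 0.28) and GRM2 (-0.38 ± 0.15, adjusted p = 0.34) led. Untreated birds at 24 h against 4 h, 8 against 7 days old, likewise gave none by the 3 tools, with 0.0127% of all genes called and 3 receptor genes (5.56% of the 54) and 4.5% of all genes at an unadjusted p under 0.05. Those were GRIN3A (0.30 ± 0.12), GRIK3 (0.37 ± 0.18) and GRIK1 (0.19 ± 0.09), with an adjusted p of 0.998 each. For the 6 changes measured at both times, no receptor gene's change passed a test of the difference between 24 h and 4 h by edgeR, DESeq2 or limma. At an unadjusted p under 0.05 there were 6 receptor genes for atropine (11.1% of the 54, beside 8.1% of all genes), 4 for pirenzepine (7.41% beside 6.04%), 6 for ADTN (11.1% beside 7.02%), 12 for TPMPA (22.2% beside 14.6%), 3 for recovery (5.56% beside 6.79%) and 8 for FDM (14.8% beside 9.08%). All tested genes gave 0% in 5 of these tests and 0.0635% for recovery. The smallest adjusted p, 0.22, was that of CHRNA7 (0.53 ± 0.17) and CHRNA7L, among others, (0.42 ± 0.14) under TPMPA, each higher at 24 h than at 4 h relative to FDM.

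In the 12 main comparisons the 95% interval of 37 to 46 of the 54 receptor genes lay within 1.5-fold in both directions. GRIA4 was among the steadiest, with log2 changes from -0.14 ± 0.07 to 0.12 ± 0.07. GRIN1 ranged from -0.23 ± 0.08 to 0.19 ± 0.08 and GABBR2 from -0.25 ± 0.11 to 0.11 ± 0.12. GLRA1 ranged from -0.29 ± 0.18 to 0.33 ± 0.16, CHRNA6 from -0.21 ± 0.11 to 0.27 ± 0.11, and CHRNB4 from -0.39 ± 0.16 to 0.43 ± 0.15. None of these 6 genes passed in any of the 12.

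A test for any difference among the 14 groups, with no group singled out, called 12 of the 54 receptor genes by edgeR. Of all tested genes it called 12.4%. In refits without 1 library the receptor count ran from 7 to 18. At an unadjusted p under 0.05 there were 28 (51.9% of the 54), beside 29.9% of all genes. Among the 12 were GRIN3A, GABRB4, CHRNA7, GABRE, GRIA1, GLRA3, GLRA2, GRM8, GABRA2, CHRNB3 and GABRA5, and the adjusted p values of the 12 ran from 0.0096 to 0.049. GRIK1 was not called over the 14 groups (edgeR adjusted p = 0.060) or over the 7 groups at 4 h (0.057). DESeq2 called 21 receptor genes, with 23.5% of all genes, and limma 8, with 7.29%. GRIN3A, GABRB4, GABRE and GRIA1 were called in all 11 alternative settings. GABRA5 was called in 3 of the 11 and in 15 of 54 refits without 1 library, CHRNB3 in 7 of the 11 and 12 of the 54, and GRM8 in 9 of the 11 and 37 of the 54. GABRB4 was highest in FDM + TPMPA at 4 h, GRIN3A in untreated retinas at 24 h (40.8 ± 4.96 CPM, n = 3) and GRIA1 in FDM + ADTN at 4 h (38.2 ± 3.46 CPM). GLRA2 was highest in recovery at 4 h (83.7 ± 13.0 CPM, n = 3), and GLRA3 and GABRA2 were lowest in recovery at 24 h (157 ± 7.17 and 105 ± 9.16 CPM). Among the 7 groups at 24 h, 5 of the 54 genes were called, beside 5.49% of all genes, and 2 to 7 in refits without 1 library. At an unadjusted p under 0.05 there were 21 (38.9% of the 54), beside 23.2%. The called genes were GRIN3A, GLRA3, CHRNA7, GABRA2 and GRM8. At 4 h 17 (31.5% of the 54) had an unadjusted p under 0.05, beside 22.5%. There 5 of the 54 were called, beside 5.26% of all genes, and 3 to 11 in refits without 1 library. GLRA2, GABRB4, GRIA1 and GABRE were among the called genes, and GABRE at 4 h was called in 3 of the 11 alternative settings and 17 of the 54 refits.

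Partners of these receptors had 9 calls in 864 tests over the 12 main comparisons (1.04%), beside 4 in 648 for the receptors (0.617%) and 0.593% of the same tests over all genes; the comparisons with FDM share its libraries. Of 20 tested genes that sit at GABA and glycine synapses, the median log2 change in the 12 main comparisons lay between -0.09 and 0.05, and TRAK1, a carrier of mitochondria and GABA-A receptors, was the 1 gene called. It fell with ADTN at 4 h (257 ± 18.2 CPM against 328 ± 28.4 CPM in FDM, -0.35 ± 0.08, edgeR adjusted p = 0.027), and with pirenzepine at 4 h (-0.34 ± 0.08, adjusted p = 0.014). Of 31 partners at glutamate synapses, medians lay between -0.12 and 0.00. The AMPA receptor companion CACNG4 (-0.36 ± 0.09, adjusted p = 0.034) and the scaffold DLG1 (-0.35 ± 0.09, adjusted p = 0.034) fell with ADTN at 4 h. NPTX1, which gathers AMPA receptors, fell with pirenzepine at 4 h (-0.44 ± 0.11, adjusted p = 0.015) and rose in recovery at 24 h, to 277 ± 46.9 CPM against 202 ± 5.92 CPM in untreated retinas (0.46 ± 0.12, adjusted p = 0.049). Against FDM, recovery retinas were lower in CBLN4 at 4 h (-0.53 ± 0.13, adjusted p = 0.047) and NETO1, a companion of kainate receptors, at 24 h (-0.45 ± 0.11, adjusted p = 0.030).

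Of 11 tested genes of the cascade that serves the metabotropic receptor of ON bipolar cells, medians lay between -0.09 and 0.10. GNB5, part of the complex that ends the G protein signal, fell with TPMPA at 4 h, to 423 ± 22.2 CPM against 532 ± 39.0 CPM in FDM (-0.33 ± 0.08, edgeR adjusted p = 0.041). NYX, which holds the cascade's channel in place, was higher in recovery than in FDM at 24 h, at 75.3 ± 10.5 CPM in recovery and 52.6 ± 12.3 CPM in FDM (0.52 ± 0.14, adjusted p = 0.037). Of 10 partners at acetylcholine synapses, medians lay between -0.21 and 0.17. LYPD6, which binds nicotinic receptors, rose with TPMPA at 4 h (22.5 ± 5.63 CPM against 12.3 ± 3.12 CPM in FDM, 0.87 ± 0.22, adjusted p = 0.043), and SLC5A7, the choline transporter, rose with pirenzepine at 24 h (49.7 ± 9.92 CPM against 30.6 ± 5.32 CPM in FDM, 0.70 ± 0.18, adjusted p = 0.023).

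Receptor genes sit in clusters on the chicken genome. On chromosome 13 GABRA6 and GABRB2 lie between 7282000 and 7480663, on chromosome 4 GABRA4, GABRA2 and GABRG1 between 67356760 and 67624911, and on chromosome 10 CHRNB4, CHRNA3 and CHRNA5 between 3543223 and 3580389. There were 19 pairs of tested receptor genes no more than 500 kb apart, and library deviations from the group mean in log2 CPM were correlated within each over 54 libraries, as 1 family of 20 relations with the GRIN2A relation given below. CHRNA3 and CHRNB4 had Pearson's r = 0.58 and Spearman's rho = 0.52 (two-sided permutation p = 4e-05 and 0.00024, adjusted 0.00027 and 0.0012, from 100000 permutations), and r = 0.51 without the 2 libraries farthest from the median of CHRNA3. GABRA2 and GABRG1 had r = 0.57 and rho = 0.56 (permutation p = 6e-05 and 0.00024, adjusted 0.0003 and 0.0012), and r = 0.58 without 2. In the same chromosome 10 cluster, CHRNA3 and CHRNA5, 2531 bases apart, had r = 0.17 and rho = 0.12 (permutation p = 0.29 and 0.46, adjusted 0.34 and 0.54), and r = 0.061 without 2. CHRNA5 and CHRNB4 had r = 0.34 and rho = 0.28 (permutation p = 0.040 and 0.088, adjusted 0.067 and 0.13), and r = 0.24 without 2. CHRNA6 and CHRNB3, 4314 bases apart on chromosome Z, had r = 0.49 and rho = 0.52 (permutation p = 0.0002 and 0.00033, adjusted 0.0008 and 0.0013), and r = 0.39 without 2. GABRA6 and GABRB2 had r = 0.25 and rho = 0.21 (permutation p = 0.203 and 0.207, adjusted 0.254 and 0.259), and r = 0.16 without 2. The median r was 0.30 over the 19 neighbour pairs and 0.081 over all 1431 pairs of tested receptor genes, and all pairs share the libraries, their depth and their scaling.

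The most abundant receptor transcripts did not keep pace with sequencing depth. For each gene with a mean of at least 2 CPM, the log2 count was regressed on the log2 library total within groups. A slope of 1 means that the gene's share of the library total does not depend on depth. The TMM factors did not enter this slope, so it does not describe the TMM-normalised CPM exactly. Among 11 receptor genes with more than 1 count per base of transcript, the median slope was 0.84 and 10 lay below 1. Among the 41 others the median was 1.20 and 3 lay below 1. GABRA6 had a slope of 0.77 ± 0.04 (SE), GRIK1 0.79 ± 0.04 and GRIN1 0.82 ± 0.04, while GLRA3 was at 0.92 ± 0.09. The pattern was not particular to receptors: over all tested genes of the same minimum the medians were 0.92 for 1757 genes above 1 count per base and 1.14 for 11318 below. The FDM group at 4 h, against which GRIK1 was called lower, was the shallowest of the 14, at a mean of 12.0 M counts. The part of depth in that call was not tested beyond the refits with the library total given above.

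**Figure D4:**
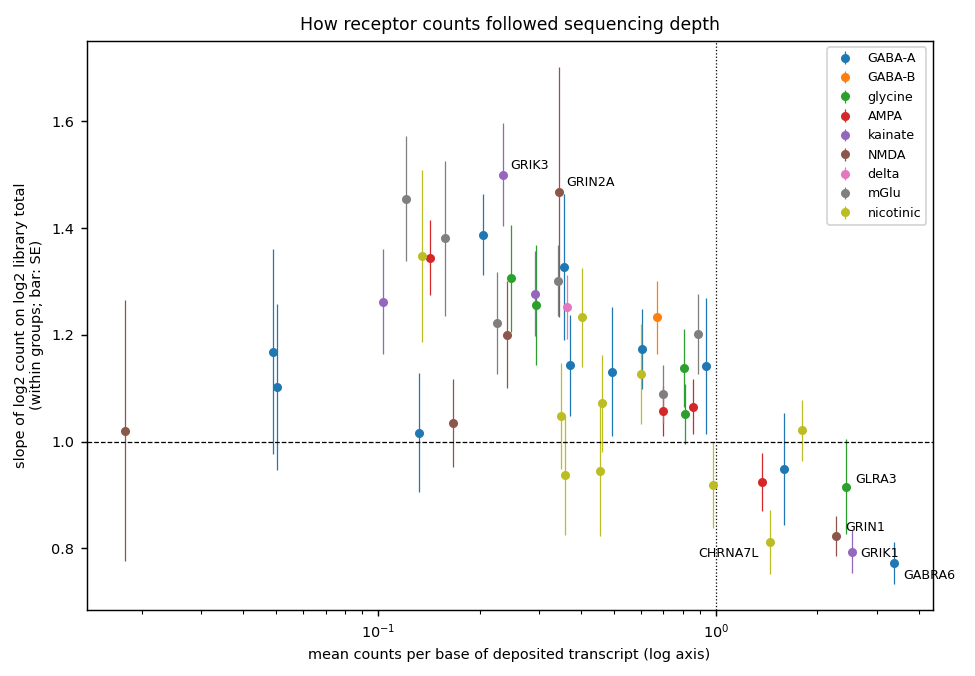
Slope of log2 count on log2 library total within groups (with SE) against mean counts per base of transcript on a log axis, for 47 receptor genes; the dashed line is a slope of 1 and the dotted line 1 count per base. Of the 8 genes right of the dotted line, 7 lie below the dashed line, and GRIK1 is at 0.79.

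GRIN2A, by mean level per kilobase the next after GRIN1 among the NMDA subunits analysed here, was the most variable receptor gene above 5 CPM. It ran from 24.3 to 153 CPM over the 54 libraries, with a coefficient of variation of 28.0%, against 8.41% for GRIN1. The lowest values were those of single libraries: library 4 of FDM + ADTN at 24 h had 24.3 CPM beside 142, 108.5 and 124 CPM in its group, and libraries 1 and 2 of FDM + pirenzepine at 4 h had 37.8 and 30.4 CPM beside 132 and 99.1 CPM. In recovery at 24 h all 4 libraries were low and close together, at 68.3, 70.4, 70.5 and 60.1 CPM. The 3 single libraries were also the 3 lowest in a long-transcript score, the mean log2 CPM of 728 other transcripts of at least 5440 bases, at 6.26, 6.36 and 6.45 beside a highest library of 6.76. Over 54 libraries the deviation of GRIN2A from its group mean followed that of the score, with r = 0.81 and rho = 0.68 (two-sided permutation p = 1e-05 for each, the smallest that 100000 permutations can give, adjusted p = 1e-04), and r = 0.67 without the 2 libraries farthest from the score's median. With that score as a covariate, GRIN2A was called lower in recovery than in untreated retinas at 24 h, with a log2 change of -0.82 (edgeR adjusted p = 0.048), an alternative chosen after the data were seen. It was not called there without the score.

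**Figure D5:**
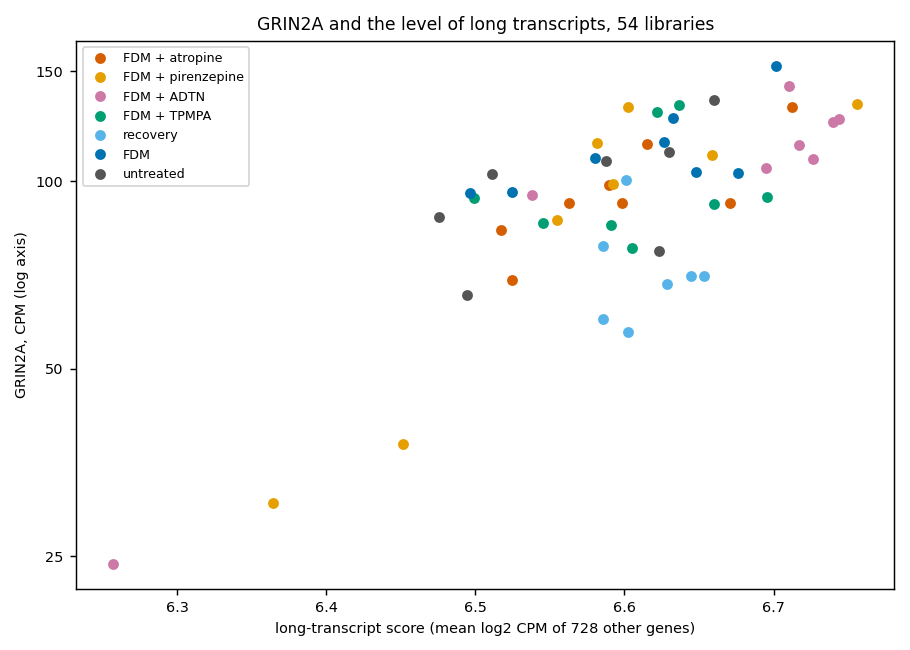
GRIN2A in CPM (log axis) against the long-transcript score (mean log2 CPM of 728 transcripts) in each of the 54 libraries, coloured by treatment with both times together. The lowest point is library 4 of FDM + ADTN at 24 h, at 24.3 CPM, and the next are the libraries of FDM + pirenzepine at 4 h at 30.4 and 37.8 CPM.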

How the data were processed

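The authors deposited raw counts per Ensembl transcript entry, 38118 entries in 54 libraries, with gene symbols and coordinates on galGal5. Per the labels' protocols, RNA (integrity number above 7) was made into strand-specific libraries and sequenced in pairs over 75 cycles. The submitters' processing notes name Trimmomatic 0.36, HISAT2 2.1, HOMER, edgeR and limma without their roles. Entries without a symbol (39.5% of entries, 11.5% of counts) were kept under their gene ID, and no other column of sample values was left out (0 such columns).

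The entry with the highest summed count stood for each gene name, so isoforms are not told apart, and reads of overlapping or near-identical genes may be split. GRM5 shares its gene ID with another symbol, so its counts are uncertain. In R 4.3.3, edgeR 4.0.16 kept 15746 genes (filterByExpr, minimum count 10, minimum total 15), scaled by TMM and fitted 1 robust quasi-likelihood model over all 14 groups. Benjamini-Hochberg adjustment ran over all genes, with a threshold of 0.05. DESeq2 1.42.0, limma 3.58.1 (voom), RLE factors, no filter, summed entries, a replicate block, covariates (library total, vessel score, small RNA score), fits on the groups compared only, and leaving out each library were alternatives. Scripts were tested on simulated data. In comparisons, genes past the threshold were named, or else the 3 smallest p values; 8 genes were followed throughout (a further one, GRM6, was not analysed here); library values of called genes are printed, and those of each family's leading genes are plotted. A few receptor genes that enter the counts and sums are not reported here. The receptor genes, partner lists and marker lists were chosen with earlier results of these data known. Of the 57 symbols, 55 matched RefSeq symbols and 2 RefSeq synonyms. No sequence is printed.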

Additional observations from a re-analysis of the deposited data

Results flagged for a closer look

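In 18 receptor genes, 216 groups of 4 libraries were searched for a single library far from the rest by Dixon's ratio. The search found 6, fewer than chance alone gives at about 1 in 20 groups. Library 4 of FDM + ADTN at 24 h, the library lowest in GRIN2A, had 83.4 CPM of GABBR2 (others 128 to 135) and 601.5 CPM of GRIN1 (others 545 to 549). GABRB4 had 45.2 CPM in library 1 of FDM at 4 h (others 29.4 to 30.5), in the group against which its level with TPMPA was set. CHRNB3 had 291 CPM in library 4 of FDM + atropine at 24 h (others 262 to 265). GABRA5 had 15.3 CPM in library 4 of recovery at 24 h (others 8.91 to 9.59). GABRA6 had 294 CPM in library 4 of FDM at 24 h (others 339 to 346).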

How the results depend on the processing

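Receptor calls were counted for each comparison in each refit that left every library in or took out 3 chosen ones, which gave 320 counts. Of these, 271 stayed within 1.5 times the main count, and no named call changed sign. Many comparisons were read from the same refit, so the 320 are not independent checks. In most of these tests the main count was 0, so that total says little of the calls made. GRIK1 kept its call with ADTN at 4 h in 8 of 12 such refits, and its call for the 4 drug groups at 4 h in 5 of 11. GLRA3 kept its call in recovery against untreated at 24 h in 8 of 12, and GRIN3A its call between the antagonists at 24 h in 8 of 11. In FDM + ADTN against FDM at 4 h (3 genes), the count was 1 with the long-transcript score or the library total as a covariate and 0 with the vessel score or on the 2 groups alone. In recovery against untreated at 24 h (1 gene), it was 0 with limma or with the small RNA score, library total or vessel score, 2 on the 2 groups alone and 3 with the long-transcript score. The 4 drug groups against FDM at 4 h (3 genes) gave 0 with the library total. Atropine against pirenzepine at 24 h (1 gene) gave 2 with DESeq2 and 0 with no filter, the small RNA score or summed entries. From 0, atropine at 4 h gave 1 with DESeq2 or the small RNA score, pirenzepine at 4 h 2 with DESeq2 and 1 with each of the 4 covariates or without the 3 libraries low in long transcripts, TPMPA at 4 h 1 with DESeq2 or without those 3, recovery against untreated at 4 h 1 with the small RNA score, pirenzepine at 24 h 1 with DESeq2, limma or without those 3 and 2 with the long-transcript or vessel score, TPMPA at 24 h 1 on its groups alone, and recovery against FDM at 24 h 3 without those 3. Any of 14 groups (12) gave 21 with DESeq2. Any group at 24 h (5) gave 9 with the long-transcript score or without those 3 libraries and 3 with the vessel score, and at 4 h (5) 11 with DESeq2 and 3 with limma, the long-transcript or the vessel score. The long-transcript score and the 3 libraries were chosen after the data were seen. The causes were not tested. Shares of all tested genes are given above for only some of these settings, and not for the refits below. The counts therefore show how receptor calls moved with the setting, and not whether receptors moved more than other genes.

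In every main comparison at least 1 pair of same-numbered libraries deviated together weakly or not at all. Correlations ran from -0.11 to 0.42. Every pair was positive for recovery against untreated at 4 h (0.069 to 0.187). The same held for pirenzepine against FDM at 4 h (0.022 to 0.178). The main model did not pair same-numbered libraries. With 3 or 4 pairs in each comparison, this check cannot decide whether libraries of the same number share an effect. With a replicate block the counts were 1 for atropine and 1 for pirenzepine at 4 h, 3 for TPMPA at 4 h, 2 for pirenzepine at 24 h, 3 for recovery against untreated at 24 h, 21 for any of 14 groups, 12 for any at 4 h and 10 for any at 24 h.

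Leaving out each library in turn, the count ranged from 0 to 5 for ADTN at 4 h, 0 to 4 for the 4 drugs at 4 h, 0 to 3 for TPMPA at 4 h, 0 to 1 for atropine and pirenzepine at 4 h and for recovery against FDM at 24 h, 0 to 2 for pirenzepine and for atropine against pirenzepine at 24 h, 7 to 18 for any of 14 groups, 3 to 11 at 4 h and 2 to 7 at 24 h. It was 0 in every refit of recovery against untreated at 24 h and of the other comparisons. An arm left with 2 or 3 libraries was assumed to vary like the other groups. Depth limits CHRND and the 3 untested genes, with a highest count in any library of 11 for CHRND, 12 for CHRNA10, 6 for CHRNG and 4 for CHRNA9, and CHRNA1, with 3 to 41 counts.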
